A study of Dicentrarchus labrax with 16 samples.

Results

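The genes described here are the 200 with the highest expression value in the testis of wild European sea bass (Dicentrarchus labrax) among the genes that were listed in the authors' expression table for testis and absent from their table for muscle. The testis table holds 16380 genes, of which 5842 were listed for testis alone and 10538 for both tissues, and another 2177 genes were listed for muscle alone. The 200 members are therefore 1.22% of the testis table, 3.42% of the genes listed for testis alone and 200 of the 26719 gene identifiers in all. The members were chosen by these same values, so their levels and their absence from the muscle table are given as a description and were not tested.

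The tissues came from adult fish caught in the sea outside the reproductive season, with no treatment, and the study set testis against muscle of the same fish. RNA-seq was carried out on testis of 5 fish and muscle of 5 fish, and the study left 1 muscle sample out of its analysis. Reduced representation bisulfite sequencing of testis and muscle of 3 fish was not analysed here, because the identifiers could not be placed on the genome. The tables give 1 value per gene and tissue, which the authors name cpm (reads counted per gene and scaled to library size). The spread between fish is therefore not known. The paper reports read numbers per library in its supplement, and these were not used here. How the libraries were joined into 1 value is not given in the sources used here, so the depth behind a value was not assessed.

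The testis is the organ in which germ cells pass through mitosis, meiosis and the shaping of sperm, in contact with supporting Sertoli cells and hormone-producing Leydig cells. It is known for transcribing many genes that are silent or nearly silent elsewhere, among them genes of meiosis and of the sperm tail. Muscle is made up mostly of muscle fibres, and much of its messenger RNA comes from a small set of genes for contraction and energy supply. Which of these roles the members have was not analysed here, since 0 of the 26719 identifiers matched the RefSeq gene list at hand and the deposited tables give them no names. For the same reason, no marker of germ, Sertoli, Leydig or muscle cells could be looked up to check the tissue labels.

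The members spanned a 17.1-fold range of testis values. The lowest value was 37.4, the lower quartile 44.3, the median 54.1, the upper quartile 82.7 and the highest 638. On the log2 scale, without a pseudocount, the median was 5.76. The median of the other 5642 genes listed for testis alone was 2.15 on this scale. The 10538 genes listed for both tissues had a log2 median testis value of 5.34. Of the 200 members, 174 had a higher testis value than the median gene listed for both tissues (40.5). The highest genes found for testis alone were thus of middle to high level within the testis as a whole, and the limit of 200 fell slightly below the middle of the genes that muscle also had listed.

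Most members lay close to the lower limit. There were 134 members under 64, 66 over 64, 37 over 100 and 25 over 128. The limit itself cut through a dense part of the list. The last members inside were DLAgn_00047370 (37.46) and DLAgn_00111530 (37.42), and the first genes outside were DLAgn_00015130 (37.33) and DLAgn_00162620 (37.28). The last member and the first gene outside differed by 0.086, so the genes on either side of the limit had nearly equal values.

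DLAgn_00140400 stood above all other members, with a testis value of 638, and was 1.68 times as high as the next. DLAgn_00022260 followed with 380, DLAgn_00067080 with 351 and DLAgn_00173070 with 286. These were the only 4 members over 256.

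Below them the values formed a gentle slope. DLAgn_00102170 (216) and DLAgn_00126440 (212) were the only other members over 200. Between 180 and 200 lay DLAgn_00073130 (195.5), DLAgn_00144360 (194), DLAgn_00007030 (189.8), DLAgn_00163170 (189.7) and DLAgn_00179380 (182).

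The rest of the 20 highest members covered a narrow band. DLAgn_00171840 had a value of 168, DLAgn_00102360 of 162, DLAgn_00123250 of 160.2, DLAgn_00130430 of 159 and DLAgn_00175140 of 152. DLAgn_00172200 (144), DLAgn_00172900 (136), DLAgn_00230070 (134.7) and DLAgn_00238060 (134.5) closed the 20. From the fifth to the twentieth member the values therefore changed by less than the step from the first member to the fourth.

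Compared with the whole testis table, even the highest member was not among the dominant transcripts. DLAgn_00140400 took place 110 of the testis table, at 12.1% of the highest value in the table (5273). DLAgn_00022260 took place 176 and DLAgn_00067080 place 200. There were 0 members among the 100 highest testis genes, 3 among the 200 highest, 6 among the 500 highest, 20 among the 1000 highest and 47 among the 2000 highest. The median place of a member was 4022. At or above the value of the last member the testis table held 5844 genes, of which 5644 were also listed for muscle, so members were 3.42% of the genes at these levels. Over the whole testis table, 35.7% of the genes were listed for testis alone.

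The share of testis genes listed for testis alone was smaller at higher levels. It was 92.0% of 1152 genes with values from 1 to 2 and 51.2% of 2111 genes from 8 to 16. From 16 to 32 it was 20.9% of 3005 genes, and from 32 to 64, where 134 of the members lie, 6.16% of 3392 genes. From 64 to 128 it was 1.90% (41 of 2156 genes, 95% Wilson interval 1.40 to 2.57%) and from 128 to 256 it was 2.78% (21 of 755 genes, 1.83 to 4.21%). From 256 to 512 it was 1.51% (3 of 199 genes, 0.514 to 4.34%) and from 512 to 1024 it was 1.22% (1 of 82 genes, 0.216 to 6.59%). None of the 53 genes at 1024 or more was listed for testis alone. The intervals above 64 overlap, so they do not show whether the decline went on there. The intervals treat genes as independent draws and cover counting error alone.

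**Figure D1:**
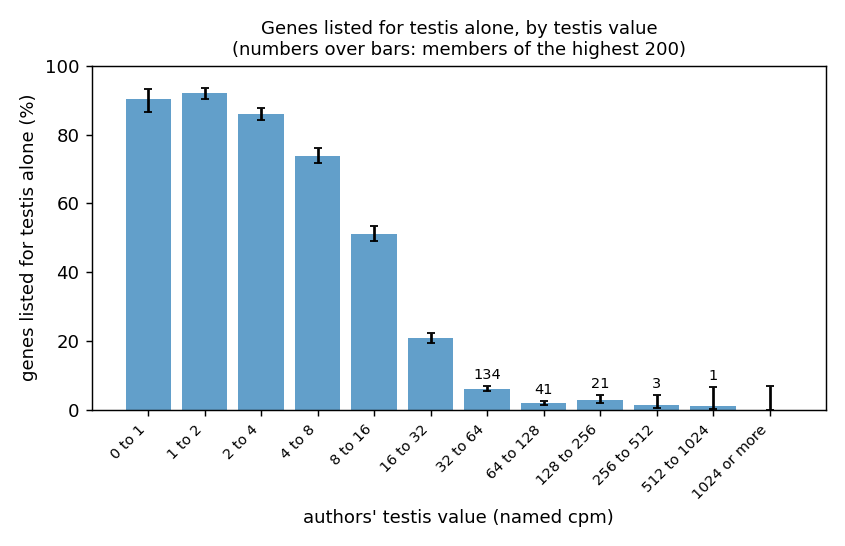
Share of testis genes that were listed for testis alone (vertical axis, %), in classes of the authors' testis value (horizontal axis), with 95% Wilson intervals as bars; the numbers over the columns count the members in each class. The share is 92.0% at values from 1 to 2 and 1.90% from 64 to 128, and the members lie in the classes from 32 to 1024.

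The members together held 1.90% of the summed testis values (15234 of 801212), which is more than their 1.22% of the genes. All 5842 genes listed for testis alone held 7.05%, so the members made up 27.0% of that part with 3.42% of its genes. The 200 highest genes listed for both tissues held 22.0% of the testis sum, and their values ran from 346 to 5273. The highest member alone held 0.0797% of the testis sum, and the 20 highest members held 0.547%.

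Within the members the sum was spread over many genes. The highest member made up 4.19% of the members' sum, the 10 highest 18.7%, the 50 highest 49.7% and the 100 highest 70.6%, and it took 51 members to reach 50%. The 200 highest genes listed for muscle alone, described by their muscle values, were far more uneven. Their highest gene made up 28.5% of their sum, 5 genes reached 50%, and their values ran from 51.4 to 35159. They held 11.1% of the summed muscle values. The Gini coefficient, which is higher where fewer genes hold the sum, was 0.323 for the members and 0.781 for this muscle list. It was 0.348 for the 200 highest genes listed for both tissues by testis value, so the even spread was not particular to the members. Over all listed genes it was 0.654 in testis and 0.934 in muscle. The tables were not scaled to the same total (801212 in testis, 1111921 in muscle), so the shares and the shapes of the lists can be set side by side and the levels cannot.

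**Figure D2:**
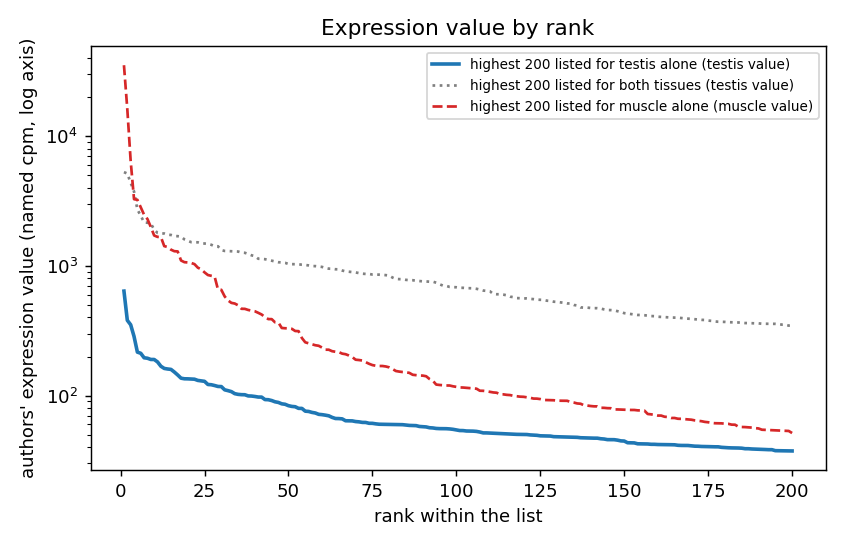
The authors' expression value (vertical log axis) by rank within 3 lists of 200 genes: the members (solid), the highest genes listed for both tissues by testis value (dotted) and the highest genes listed for muscle alone by muscle value (dashed). The members run from 638 to 37.4, while the muscle list runs from 35159 to 51.4 on its own scale.

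Absence from the muscle table did not by itself show that a gene had no reads in muscle. The authors' comparison table gives each identifier a further value named baseMean, taken here from its name as an overall mean over libraries of both tissues. Its tool and scale, and whether it includes the muscle sample that the study left out, are not given in the sources used here. A value is also given for 8162 identifiers although they were listed in neither tissue's table. Of these, 183 had an overall mean at or above the lowest overall mean of a member (561) and 39 were above the members' median (1364). The listed values went down to 0.254 in testis and 0.0082 in muscle. The study took genes expressed in a single tissue, at any level, as specific to it. The level from which a sea bass gene counted as expressed, and so was listed, is not given in the sources used here.

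The overall mean of the members lay between 561 and 16835, with the highest again at DLAgn_00140400. It followed the testis value among the members (Spearman's rho of 0.850 over 200 genes, which share the same libraries and are not independent). Over all genes listed for testis alone the rho was 0.926, so the link was not particular to the members. Of the 200 genes listed for testis alone with the highest overall mean, 158 were members. Taken as a mean over both tissues, the overall mean would include the testis reads that chose the members. The rho and the overlap are therefore partly built in. The overall mean divided by the testis value had a median of 25.01 over the members (quartiles 21.9 and 28.4), against 30.2 over the other genes listed for testis alone. The overall mean was fitted on the testis and muscle values of the 10538 genes listed for both tissues. This gave 24.3 per unit of testis value and 143 per unit of muscle value. The members' median lay 2.99% above the testis factor. The genes used for the fit themselves had a median of 1.05 times their fitted value. The members were chosen by a high testis value, which divides their overall mean, so a low ratio is partly built in. The members' place against the fitted genes is therefore a description alone. Against the factor from median ratios, 29.6 (taken over the tenth of these genes with the highest ratio of testis to muscle), the members' median lay lower, at -15.5%, so its place depends on how the scale is set.

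Single members departed from this in both directions. The overall mean was more than 10% above the testis part in 69 members, more than 10% below it in 49 and within 10% in 82. The testis part comes from the value that chose the members, so these counts are partly built in too. For the genes listed for both tissues, the overall mean over its fitted value had quartiles of 0.951 and 1.17. An excess over 10% was thus common there too and is not particular to the members. Among the members the largest excess was at DLAgn_00176230 (149%, testis value 53.3), followed by DLAgn_00007260 (109%, 98.4), DLAgn_00172900 (89.8%, 136), DLAgn_00156490 (82.3%, 45.3) and DLAgn_00185790 (80.9%, 40.7). DLAgn_00130430, the fifteenth member, lay furthest below, by -66.0%.

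Whether the excesses reflect reads in muscle was not tested, and neither was the cause of the departures below the testis part. Among the genes listed for both tissues the overall mean also ranged from 0.792 (5th percentile) to 1.56 (95th percentile) times its fitted value. Of the members, 10 were above and 17 were below that range when set against the testis part alone. The choice of members by testis value bears on these counts too. With the scale taken from median ratios 29 members had an excess over 10%, in place of 69.

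**Figure D3:**
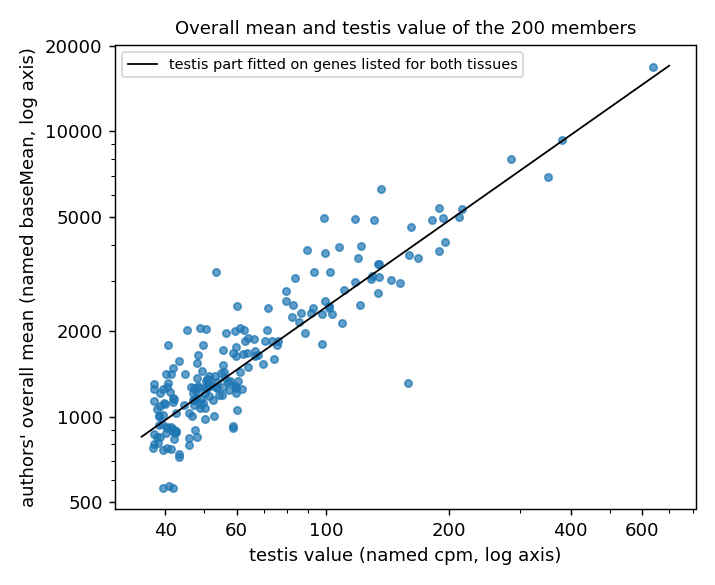
The authors' overall mean (named baseMean, vertical log axis) against the authors' testis value (horizontal log axis) for the 200 members, 1 point per gene; the line is 24.3 times the testis value, the testis part fitted on the genes listed for both tissues. The points scatter on both sides of the line, with 69 members more than 10% above it and 49 more than 10% below.

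The identifiers carry a number, and the question was whether those of the members lie close together. The numbers of all 26719 identifiers ran from 10 to 267190 in steps of 10 without a gap, so a distance of 10 means the next identifier. Whether this order follows the position of genes on the genome is not given in the sources used here, so closeness is meant in the order of identifiers alone.

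The members were spread over nearly the whole range, from 450 to 261290. The distance from a member to the nearest other member had a median of 465 and ran from 10 to 4880. For 32 of the 200 members (16%) another member lay within 100, and for 168 none did. The next 200 genes listed for testis alone gave 15.5%, the 200 highest genes listed for muscle alone 16% and the 200 highest genes listed for both tissues, by testis value, 19.5%. By this measure the members were no closer to each other in identifier order than these other lists of 200. Within 200 of each other lay 69 members, against 43, 45 and 62 genes of the 3 other lists in the same order.

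The 32 members with another nearby formed 15 groups, 14 of them pairs. One pair had adjacent identifiers, DLAgn_00114390 (testis value 59.6) and DLAgn_00114400 (103.4). Members of a pair differed by a median of 1.65-fold between the higher and the lower, with a range from 1.02-fold to 5.52-fold. The like fold between members that are not neighbours was not measured, so this is not shown to be a trait of pairs. The most unlike pair was DLAgn_00126440 (212), the sixth member, with DLAgn_00126340 (38.4). The most alike was DLAgn_00065980 (41.2) with DLAgn_00066000 (40.3). Of the 20 highest members 5 were in such groups, and of the 37 members over 100 there were 10. Whether neighbouring identifiers are copies of one gene that could share reads was not tested.

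The largest group held 4 members within 10 successive identifiers. They were DLAgn_00102290 (48.2), DLAgn_00102320 (42.1), DLAgn_00102360 (162) and DLAgn_00102380 (47.1). A single member of the group was high and the other 3 lay near the limit of the list. Of the 10 identifiers in the stretch, 6 were listed for testis alone, 3 for both tissues and 1 for muscle alone. The other 2 genes listed for testis alone there were DLAgn_00102330 (0.965) and DLAgn_00102370 (17.5), so genes of high and low value stood side by side. DLAgn_00102340, which lies between the members and was listed for both tissues, had 337 in testis and 16.6 in muscle, each on its table's scale.

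A looser gathering of members with high values was seen further up the range, and was singled out after the values were seen. Between 170000 and 180000, 15 of the 212 genes listed for testis alone were members, and 8 of the 15 were over 100, while no other window of 10000 held more than 3 members over 100. In number of members this window was exceeded by 60000 to 70000 alone, which held 18 of 231, of which 1 was over 100. The next windows, 100000 to 110000 and 110000 to 120000, held 12 members each. Members were 3.42% of all genes listed for testis alone. From 170000 to 180000 the members over 100 included DLAgn_00173070, DLAgn_00179380, DLAgn_00171840, DLAgn_00175140, DLAgn_00172200 and DLAgn_00172900, all among the 20 highest. The others over 100 there were DLAgn_00170500 (131) and DLAgn_00170590 (101.5). The window from 170000 to 180000 held 10.8% of the members' sum. Of the 27 windows of this width 10 held no member over 100.

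**Figure D4:**
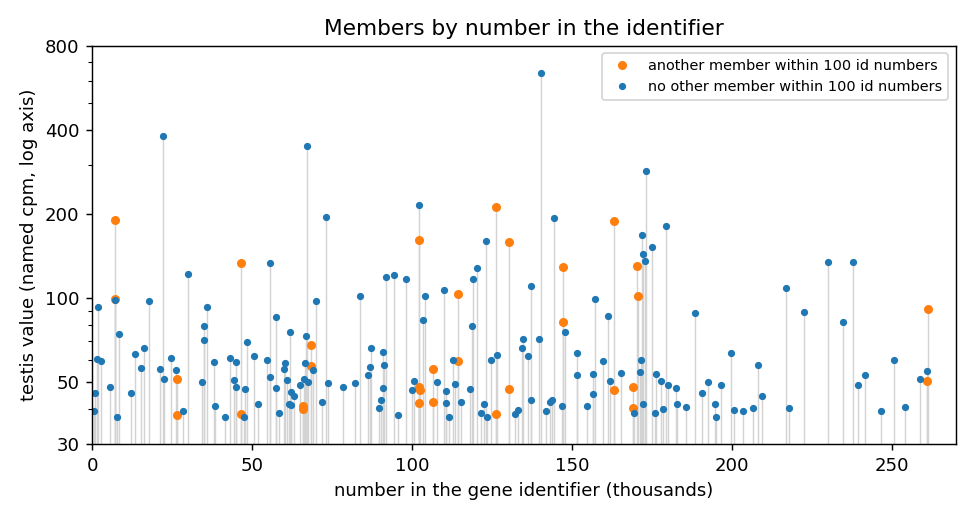
Testis value (vertical log axis) of the 200 members by the number in their identifier (horizontal axis); orange points have another member within 100, blue points do not. The members are spread from 450 to 261290, with 8 members over 100 between 170000 and 180000 and few members above 200000.

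The members were thin at the upper end of the numbers. Above 200000 lay 20 members (10%, 95% Wilson interval 6.57 to 14.9%), against 1719 of all 5842 genes listed for testis alone (29.4%). The next 200 genes listed for testis alone had 11.5% there, the 200 highest genes listed for both tissues 16% and the 200 highest genes listed for muscle alone 20.5%. All identifiers had 25.1% above 200000. Members made up 1.16% of the genes listed for testis alone above 200000 and 4.37% of those at or below it. In blocks of 20000 they made up between 2.76% and 5.91% up to 200000 and between 0.952% and 1.48% beyond. The split was placed after these counts were seen, so the gap between the 2 ranges follows in part from that choice.

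The whole class of genes listed for testis alone made up more of the testis table at that end of the numbers. They were 30.1 to 33.4% of it in each block up to 200000 and 40.5 to 61.5% in the blocks beyond. In number they were 392 to 439 per block up to 200000 and 479, 512 and 525 in the full blocks beyond. The testis table itself held 1253 to 1341 genes per block up to 200000 and 1184, 972 and 928 in those beyond. The higher share thus came with fewer genes in the testis table as well. The last block held 719 identifiers, against 2000 in the others. The median value of genes listed for testis alone was 3.48 above 200000, against 5.54 at or below it. Genes listed for both tissues also had a lower median testis value above 200000 (29.4) than below (42.5). The members above 200000 had a median of 52.1 and a highest value of 134.7, against 54.8 and 638 for the other members. Both medians are held near the lower limit by the choice of members, so they do not compare the levels of the ranges. The highest above 200000 were DLAgn_00230070 (134.7) and DLAgn_00238060 (134.5), and 3 of the 37 members over 100 lay there. The split at 200000 was chosen after the counts per block were seen, and no test was made.

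**Figure D5:**
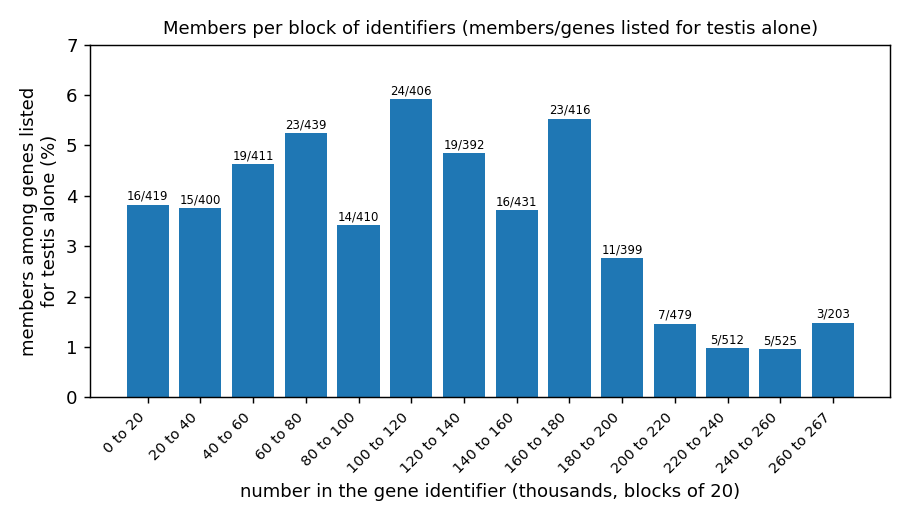
Members as a percentage of the genes listed for testis alone (vertical axis) in blocks of 20000 of the number in the identifier (horizontal axis); the labels give members over genes listed for testis alone. The first 10 blocks lie between 2.76% and 5.91% and the last 4 between 0.952% and 1.48%.

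The neighbours of the members in identifier order were then examined. Their listing comes from the same tables that chose the members, so the shares are a description. Counting the identifier on either side of each member, 30.5% of 400 were listed for testis alone (122, 95% Wilson interval 26.2 to 35.2%). Some identifiers stand beside a pair of members and are counted for each, and 2 of the 122 are the adjacent members themselves. With each identifier counted once and members left out, 29.7% of 394 were listed for testis alone (117, 25.4 to 34.4%). Counted in the same way, the share was 25.8% around the next 200 genes listed for testis alone, 18.7% around the lowest 200 of them, 19.02% around the 200 highest genes listed for both tissues and 19.6% around the 200 highest for muscle alone. Of all identifiers 21.9% were listed for testis alone. The interval of the members overlaps that of the next 200 (21.7 to 30.3%) and lies above the share in all identifiers. Around all 5842 genes listed for testis alone, with the identifier on either side counted, the share was 25.7% (24.9 to 26.5%). The share around the whole class also lies above that in all identifiers, so a raised share was not particular to the members. The members' interval counted in that way (26.2 to 35.2%) overlaps that of the class only narrowly. Whether the share is higher around the members than around the class was not tested. Neighbours are not independent draws, so the intervals cover counting error alone.

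The surroundings of single members varied. There were 18 members with a gene listed for testis alone on both sides, 86 with one on a single side and 96 with none. At least 1 such neighbour was thus present for 104 of the 200 members, against 2590 of all 5842 genes listed for testis alone. Both neighbours were listed for both tissues in 30 members, among them DLAgn_00140400 and DLAgn_00007030. Of single neighbours, 39.25% around the members and 39.4% around all identifiers were listed for both tissues, so this was not particular to the members. How many of all identifiers had neighbours of either kind on 1 or both sides was not counted, so these counts have no share over all identifiers beside them. DLAgn_00144360 and DLAgn_00175140 had a gene listed for testis alone on both sides. Of the 20 highest members 11 had at least 1 such neighbour. The 117 neighbours that were listed for testis alone and were not members themselves had low values, with a median of 5.72 (lowest 0.760, highest 37.3), against 4.44 for all genes listed for testis alone outside the 200. These neighbours are under the members' limit by the rule itself, so the highest value here is set by it.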

How the data were processed

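RNA-seq values were taken from 2 tables, 1 per tissue, in which the authors deposited an expression signal per gene that they name cpm. The paper describes alignment with the GEMtools pipeline to dicLab v1.0c and TMM scaling. Whether the values used here carry that scaling was not tested. The values sum to 801212 in testis and 1111921 in muscle, so no fixed unit was assumed. The authors deposited a further signal, named baseMean and taken as an overall mean per gene, in the table of their comparison. That table's log2 fold changes, test statistics and p-values were not used. The submitters' processing notes name BSMAP, methylKit and edgeR. Members were found by set difference of the identifiers and ranked by testis value. Distances were counted in identifier numbers, with a limit of 100, and the scale of the overall mean was fitted by least squares of relative residuals. The fit was tried on simulated data with less scatter than these data, so that trial does not settle the factor here. No test was run: there is 1 value per gene and tissue. Named genes were the 20 highest members, 2 on either side of the limit, groups of at least 3 within 100, the 5 largest excesses of the overall mean, and genes singled out in the text after their values were seen. The members and lists were chosen with earlier results of these data known. Alternatives changed the number of members, the definition of listing, filters under 1, pseudocounts, distances and scale. The 6 bisulfite libraries were left out. Calculations were run in Python 3.11.15 (pandas 2.3.3, numpy 2.4.6, scipy 1.17.1) and plots drawn with matplotlib 3.10.9.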

Additional observations from a re-analysis of the deposited data

How the results depend on the processing

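The tables hold no value per fish, so no fish could be left out. No paired analysis was possible because the tables carry 1 value per tissue and no result comes from a test. The members' share of the testis sum (1.90%) was 1.34% for the 100 highest, 2.68% for the 400 highest, 2.001% when muscle values under 1 were taken as not listed (166 of the 200 members were kept) and 27.0% of the sum over genes listed for testis alone. With testis genes under 1 left out it was 1.90%. The log2 median (5.76) was 6.38 for the 100 highest and 5.22 for the 400 highest. It was 5.77 with 0.5 added before the log, 5.78 with 1 added and 5.88 when muscle values under 1 were taken as not listed. The number of members with another close by (32 within 100) was 10 within 20, 16 within 50, 69 within 200 and 102 within 500. It was 10 of the 100 highest and 116 of the 400 highest. The share of neighbours listed for testis alone (30.5%) was 28.25% with 2 on either side and 24.85% with 5, against 24.3% and 23.3% around all genes listed for testis alone, 28.75% with genes under 1 taken as not listed, and 29.7% with each neighbour counted once and members left out. The number of members with an excess of the overall mean over 10% (69) was 29 with median ratios. It was 71 with shared genes under 1 left out of the fit, 92 at a limit of 5% and 47 at a limit of 20%. The share of members with a high identifier number (10% above 200000) was 15.5% above 180000 and 6.5% above 220000, against 36.3% and 21.2% of all genes listed for testis alone, and 9.0% and 10.75% for the 100 and 400 highest. These limits, and the count of each neighbour once, were chosen after seeing the data.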

Other observations

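Genes in neither tissue table offer a comparison for the members. Of these 8162 identifiers 448 had an overall mean of 0, and the highest overall mean among them was 38664, above that of every member (16835 at most). The overall mean per unit of muscle value had a median of 316 over the genes listed for muscle alone, against 169 over the tenth of the shared genes with the lowest ratio of testis to muscle. On the testis side the like medians were 25.01 for the members, 30.2 for the other genes listed for testis alone and 29.6 for the tenth of the shared genes with the highest ratio. The cause of these gaps was not tested, and the members' median is partly set by their choice by testis value.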
